A study of Mus musculus with 53 samples.

Results

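Livers labelled Bmp8b knockout were compared with wild-type livers 3 days after partial hepatectomy, the surgical removal of part of the liver. The comparison takes the 4 day 3 libraries with a knockout title (mice 17 to 20) and the 5 day 3 libraries with a wild-type title (mice 12 to 16), 9 of the 53 libraries of the series. All 9 came from snap-frozen whole liver of male C57BL/6J mice, 16 weeks old at surgery per the series design, with wild-type littermates as controls. The same table holds 5 wild-type livers at day 0 (mouse numbers 12 to 16 again), which entered the fit but not the comparison. The 53 libraries hold no liver labelled knockout at day 0, so a difference at day 3 may or may not have been present before surgery. The labels do not say how the knockout allele was made or which exons it lacks. The 9 libraries share i5 index D507, the wild-type libraries carry i7 indices D704 to D708 and the labelled knockout libraries D709 to D712, so the order of the i7 indices and the group cannot be told apart. Nothing in the labels says that livers were pooled, and each title names 1 mouse.

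Bmp8b codes for a signal that cells secrete, 1 of the bone morphogenetic proteins (BMPs). BMP ligands bind pairs of type I and type II receptor kinases, which phosphorylate SMAD proteins that switch on targets such as the Id genes and, in hepatocytes, hepcidin. After partial hepatectomy the remaining hepatocytes re-enter the cell cycle while they go on with metabolism, and fat accumulates in them for a time. Fatty acids are burnt in mitochondria and peroxisomes, and many of those enzymes are targets of the nuclear receptor PPAR-alpha.

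Day 3 libraries held 2450358 to 4076861 gene counts. The unit of level is CPM, a gene's count as a share of the TMM-normalized library total, scaled alike in every library. The liver identity of the tissue was checked with 23 tested genes of hepatocyte identity and secreted proteins, whose summed level was 164815 to 197514 CPM in the wild-type livers and 163709 to 189731 in the livers labelled knockout. On the first principal component of the 9 libraries (19.7% of the variance), labelled knockout livers 19 and 20 stood apart, with scores of 40.4 and 22.9 where the other 7 lay between -17.8 and 4.38. No 2 libraries of a group agreed within sampling noise, as the lowest chi-square per degree of freedom between them was 5.27.

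The sequences of a gene and its copy are shown first because the largest differences of the comparison fall on a pair of near-identical copies. Ndufs5, which encodes an accessory subunit of mitochondrial complex I, lies at chr4:123712710-123718202 on the minus strand (GRCm38, ENSMUSG00000028648). BC002163 is a processed pseudogene at chr16:42955631-42955949 on the plus strand (ENSMUSG00000081824). Its 319-base transcript matches the Ndufs5 transcript without a gap from the start codon on and differs from it at 2 positions, T81C and A105G, counted from the A of the start codon with the Ndufs5 base first. The first 150 bases of each follow, from the GENCODE vM21 transcripts, with the differing bases in capitals.
Ndufs5 coding sequence: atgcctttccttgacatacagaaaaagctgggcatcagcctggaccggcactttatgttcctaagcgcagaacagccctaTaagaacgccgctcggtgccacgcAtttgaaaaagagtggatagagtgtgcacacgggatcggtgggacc
BC002163 transcript: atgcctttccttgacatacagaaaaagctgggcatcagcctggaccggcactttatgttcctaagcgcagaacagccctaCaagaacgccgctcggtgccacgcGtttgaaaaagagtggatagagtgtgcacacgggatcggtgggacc

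Of 11026 genes tested, 17 were called between the labels at an edgeR adjusted p under 0.05 (0.154%). Of these, 13 were higher in the livers labelled knockout (0.118%) and 4 were lower (0.0363%). The higher genes included 6 of fatty acid metabolism (Cyp4a14, Cyp4a10, Ehhadh, Acaa1b, Aldh3a2 and Fabp1), together with Nr0b2, Gclc, Ces1e, Sgk2, Hyi, Fam210a and the processed pseudogene BC002163. The lower genes were Ndufs5, C77080, Cyp7a1 and Scara5. At an unadjusted p under 0.05 there were 518 higher (4.70%) and 483 lower genes (4.38%), 1001 in all. All 4 labelled knockout livers lay above all 5 wild-type livers for 167 genes (1.51%) and below them for 128 (1.16%), and each of the 17 called genes was among these. The median log2 fold change of all tested genes was 0.0027. Leaving out 1 library gave between 3 calls (without wild-type liver 15, or without labelled knockout liver 20) and 40 calls (without labelled knockout liver 17). C77080, BC002163 and Ndufs5 were the 3 genes called in all 9 of these fits.

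**Figure D1:**
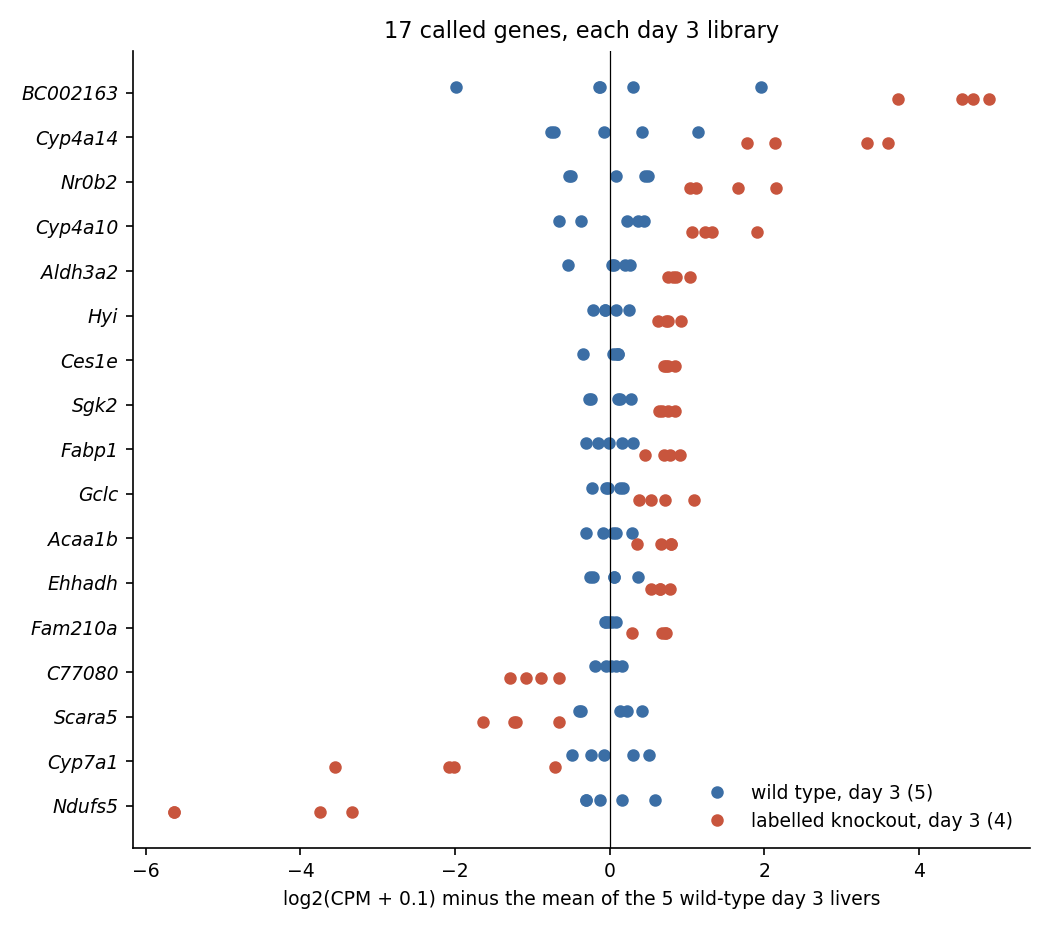
Levels of the 17 called genes in each day 3 library, as log2(CPM + 0.1) minus the mean of the 5 wild-type livers (x axis), 1 row per gene, blue points for wild type and red points for labelled knockout. In every row the 4 red points lie on 1 side of the 5 blue points, 13 rows to the right and 4 to the left.

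The targeted gene did not serve as a check of the labels. Bmp8b lies at chr4:123105165-123132099 on the plus strand (ENSMUSG00000002384) and was too low to pass the filter on counts. Its raw counts were 2, 3, 1, 5 and 3 in wild-type livers 12 to 16 and 4, 7, 6 and 9 in labelled knockout livers 17 to 20. In CPM these were 0.519, 0.890, 0.358, 1.31 and 1.16 against 1.08, 2.63, 2.37 and 2.40. The livers labelled knockout were thus not lower, and 1 of them (liver 17) overlapped the wild-type range. The mean of log2(CPM + 0.5) was 0.97 higher in the livers labelled knockout, with p = 0.0397 by an exact permutation test, two-sided (n = 5 and 4), where 0.00794 is the smallest p this design allows. Over the group sums of 14 and 26 counts the ratio was 2.41 (exact 95% interval 1.21 to 5.00, counting error only). The counts are per gene and do not tell exons apart. Without any 1 of 8 of the 9 libraries the exact permutation p was 0.0571 to 0.0893, and without liver 17 it was 0.0179. Bmp8a, the neighbouring paralog, had 0 counts in all 14 libraries of the table, so that levels up to 1.19 CPM cannot be told from 0 in the shallowest day 3 library (counting error only).

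Ndufs5 and BC002163 went in opposite directions and by similar amounts. Ndufs5 was at 5.45, 4.45, 3.93, 3.94 and 7.35 CPM in wild-type livers 12 to 16 and at 0.271, 0, 0.395 and 0 CPM in labelled knockout livers 17 to 20. BC002163 was at 0.260, 0, 1.43, 0.263 and 0.387 CPM in the wild-type livers and at 9.21, 10.2, 5.14 and 11.7 CPM in the livers labelled knockout. The groups did not overlap for either gene. In raw counts, Ndufs5 had 81 in the 5 wild-type livers and 2 in the 4 livers labelled knockout, a normalized ratio of 31.2 (exact 95% interval 8.35 to 262, counting error only). BC002163 had 7 and 118 counts, a ratio of 21.9 the other way (10.3 to 55.7). The edgeR log2 fold changes were -4.69 (SE 0.65) for Ndufs5 and 4.29 (SE 0.58) for BC002163, both with an edgeR adjusted p of 0.00191.

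The 2 genes together gave another result. Their summed level was 5.71, 4.45, 5.36, 4.20 and 7.73 CPM in wild-type livers 12 to 16 and 9.48, 10.2, 5.53 and 11.7 CPM in labelled knockout livers 17 to 20, so the groups overlapped. The means were 5.49 ± 1.40 CPM (SD, n = 5) and 9.23 ± 2.64 CPM (SD, n = 4). With the counts of the pair summed before the fit, the pair was 0.77 higher on the log2 scale in the livers labelled knockout (edgeR adjusted p = 0.446). The matched 319 bases differ at 2 positions, and how reads that fit both copies were counted is not given. The match covers bases 93 to 411 of the 525-base Ndufs5 transcript, so Ndufs5 also has bases that the pseudogene lacks. Whether reads of one copy were assigned to the other was not tested, so the level of neither gene alone is certain.

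**Figure D2:**
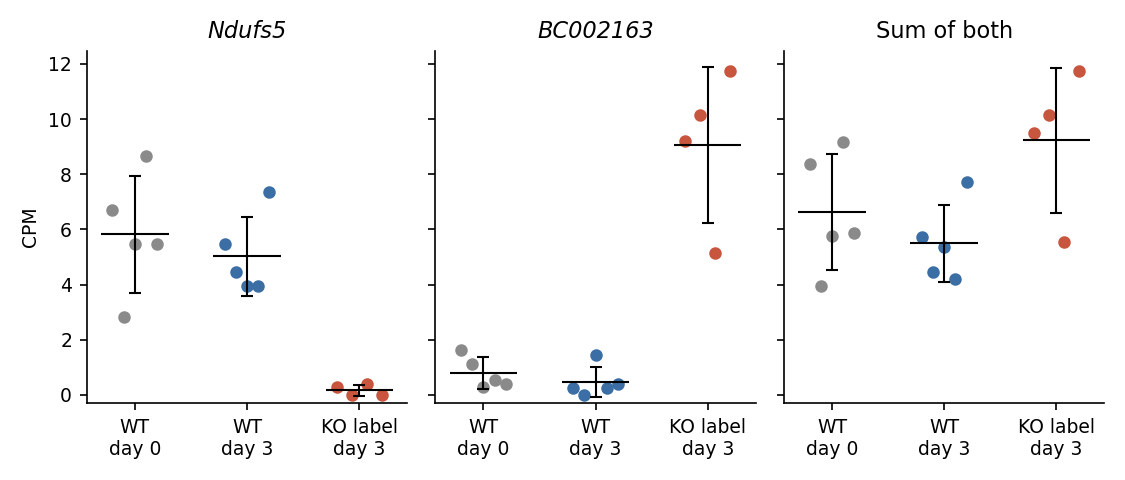
CPM of Ndufs5, of BC002163 and of their sum (y axis) in wild-type livers at day 0 (grey, 5), wild-type livers at day 3 (blue, 5) and labelled knockout livers at day 3 (red, 4), with mean (line) and SD (bar). Ndufs5 is near 0 and BC002163 high in the red group, and the sums overlap between the day 3 groups.

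C77080 had the smallest unadjusted p of all tested genes. It lies at chr4:129219578-129261404 on the minus strand (ENSMUSG00000050390), 6.11 Mb from the start of Bmp8b. Its annotated span overlaps the end of Yars only from base 129219578 to 129219607, where reads may be shared. Yars had means of 53.5 CPM in the wild-type and 60.6 CPM in the labelled knockout livers (edgeR adjusted p = 0.768). It was at 99.95, 109, 115, 105 and 90.5 CPM in wild-type livers 12 to 16 and at 42.2, 65.5, 48.6 and 55.8 CPM in labelled knockout livers 17 to 20, without overlap. Its log2 fold change was -0.97 (SE 0.13, edgeR adjusted p = 0.00191), a 1.96-fold lower level. The 5 day 0 wild-type livers were at 133 ± 17.5 CPM (SD).

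Genes of fatty acid oxidation and PPAR-alpha targets made up the list with the most calls. Of its 25 tested members (27 listed), 4 were called higher and none was called lower, beside 0.118% and 0.0363% of all genes. At an unadjusted p under 0.05, 14 were higher and 0 lower, beside 4.70% and 4.38% of all genes, and 10 had all 4 labelled knockout livers above all 5 wild-type livers, beside 1.51%. The median log2 fold change of the list was 0.29, and 24 of 25 members were above 0. The exception, named after its value was seen, was Ppargc1a, a coactivator gene of mitochondrial metabolism, at -0.64. The summed level of the list was 7191 to 8727 CPM in the wild-type livers and 9201 to 9942 CPM in the livers labelled knockout, without overlap. Its mean log2 deviation from the wild-type mean was 0.37, 0.40, 0.49 and 0.62 in labelled knockout livers 17 to 20 and between -0.18 and 0.14 in the wild-type livers.

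Cyp4a14 and Cyp4a10 encode cytochromes P450 that hydroxylate fatty acids at their end carbon, and both are classical PPAR-alpha targets. Cyp4a14 was at 33.8, 14.8, 55.8, 15.2 and 24.0 CPM in wild-type livers 12 to 16 and at 86.4, 112, 253 and 305 CPM in labelled knockout livers 17 to 20. Livers 19 and 20 were highest, and the lowest labelled knockout liver was above the highest wild-type liver. The log2 fold change was 2.73 (SE 0.45, edgeR adjusted p = 0.0180), a 6.65-fold higher level. Cyp4a10 was at 60.5, 34.4, 52.2, 28.4 and 57.2 CPM against 112, 105, 93.3 and 168 CPM, with a log2 fold change of 1.37 (SE 0.27, edgeR adjusted p = 0.0440). The Cyp4a genes lie side by side and are similar in sequence, so reads may be divided between them. The call of Cyp4a14 was lost without wild-type liver 15 or labelled knockout liver 19 or 20, with an edgeR adjusted p of at most 0.113. That of Cyp4a10 was kept in 1 of the 9 fits that left out a library.

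Ehhadh and Acaa1b encode enzymes of the peroxisomal fatty acid oxidation cycle. Ehhadh was at 238, 237, 198, 191 and 296 CPM in wild-type livers 12 to 16 and at 333, 358, 395 and 361 CPM in labelled knockout livers 17 to 20. Acaa1b was at 270.3, 296, 304, 232 and 349.6 CPM against 457, 368, 499 and 497 CPM. The groups did not overlap for either gene, though liver 18 was close to the wild-type range for Acaa1b. The log2 fold changes were 0.64 (SE 0.12) and 0.65 (SE 0.13), both with an edgeR adjusted p of 0.0440. Each was called in 3 of the 9 fits that left out a library.

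**Figure D3:**
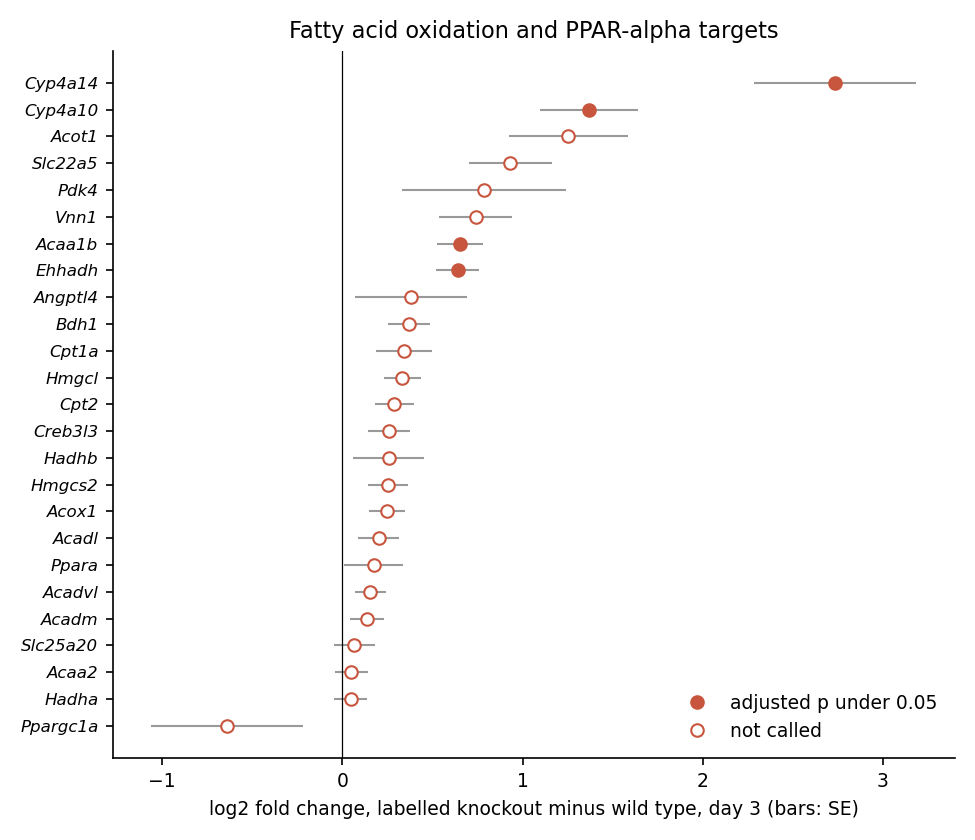
Log2 fold change of labelled knockout minus wild type at day 3 (x axis, bars SE) for the 25 tested genes of fatty acid oxidation and PPAR-alpha targets, filled points for an edgeR adjusted p under 0.05. The 4 filled points are Cyp4a14, Cyp4a10, Acaa1b and Ehhadh, and 24 of 25 points lie right of 0.

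Fabp1 and Aldh3a2, outside that list, also serve fatty acid handling and were called higher. Fabp1 encodes the liver fatty acid binding protein. It was at 2114, 2393, 1728, 1929 and 2639.8 CPM in wild-type livers 12 to 16 and at 2939.9, 3652, 3484 and 4011 CPM in labelled knockout livers 17 to 20, a log2 fold change of 0.70 (SE 0.14, edgeR adjusted p = 0.0440). The day 0 wild-type livers were at 3325 ± 566 CPM (SD, n = 5), so for Fabp1 the labelled knockout livers lay nearer to the day 0 level than the wild-type livers at day 3 did. For Cyp4a14, Cyp4a10, Ehhadh, Acaa1b and Aldh3a2 the wild-type day 3 mean lay nearer to day 0 instead. Their day 0 means were 7.10, 18.5, 201, 328 and 158 CPM. Aldh3a2, a fatty aldehyde dehydrogenase, was at 92.5 to 162 CPM in the wild-type livers and at 226 to 277 CPM in the livers labelled knockout, a log2 fold change of 0.85 (SE 0.17, edgeR adjusted p = 0.0440). Of the 9 fits that left out a library, Fabp1 was called in 3 and Aldh3a2 in 1.

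A promoter window of 300 bases (250 before and 50 after the annotated start, RefSeq, GRCm38.p6) was matched for 8 of the 17 called genes, Acaa1b, Aldh3a2, C77080, Ces1e, Ehhadh, Fabp1, Ndufs5 and Nr0b2. It was searched on both strands, with up to 2 mismatches, for the direct repeat to which PPAR-alpha and its partner bind, AGGTCANAGGTCA. A match was found in Fabp1 alone among the 8, with 1 mismatch, at bases -67 to -55 from the start, as AGGcCAtAGGTCA on the strand opposite to the gene (mismatch and spacer in lower case). Of all 32851 windows 3.86% held such a match. The 250 bases before the Fabp1 start, chr6:71199629-71199878 on the plus strand, are shown because Fabp1 is the called gene with the match, whose bases are in capitals.
Fabp1 promoter: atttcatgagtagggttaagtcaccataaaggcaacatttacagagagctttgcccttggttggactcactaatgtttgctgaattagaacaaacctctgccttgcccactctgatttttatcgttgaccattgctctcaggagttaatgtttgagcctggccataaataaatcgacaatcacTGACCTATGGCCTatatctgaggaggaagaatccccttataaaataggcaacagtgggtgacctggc
A match is a run of letters, and binding was not measured.

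In bile acid metabolism, the 2 called genes were the enzyme that starts synthesis and a repressor of it. Cyp7a1 encodes the rate-limiting enzyme of bile acid synthesis. It was at 253, 213, 283, 423 and 369 CPM in wild-type livers 12 to 16 and at 183, 73.7, 70.8 and 25.3 CPM in labelled knockout livers 17 to 20, a log2 fold change of -1.80 (SE 0.35, edgeR adjusted p = 0.0440) and a 3.48-fold lower level. Liver 17 was closest to the wild-type range, and without it the log2 fold change was -2.47. Nr0b2 encodes the nuclear receptor SHP, known to repress Cyp7a1. It was at 20.5, 10.1, 20.0, 10.2 and 15.5 CPM against 30.1, 46.3, 31.6 and 64.8 CPM, a log2 fold change of 1.51 (SE 0.27, edgeR adjusted p = 0.0348). In both genes liver 20 was the most extreme. Leaving out 1 library kept the call of Nr0b2 in 5 of 9 fits and that of Cyp7a1 in 2 of 9.

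The rest of the bile acid list did not pass the test. Over all 25 tested genes, with the 2 called ones, the median log2 fold change was 0.083, and 6 were higher and 3 lower at an unadjusted p under 0.05, beside 4.70% and 4.38% of all genes. Slco1a1, an uptake carrier, was at 86.2 to 179.8 CPM in the wild-type livers and 162 to 295 CPM in the livers labelled knockout, with an edgeR adjusted p of 0.0711. Abcg8, of the sterol exporter, was at 41.0 to 50.4 CPM and 57.2 to 82.2 CPM (edgeR adjusted p = 0.0773).

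The other called genes of known function served redox, esterase, kinase and iron handling roles. Gclc, the catalytic subunit of the enzyme that starts glutathione synthesis, was at 219 to 291 CPM in the wild-type livers and 334 to 549 CPM in the livers labelled knockout, with liver 19 highest (log2 fold change 0.70, edgeR adjusted p = 0.0440). It was the single call among 17 tested genes of glutathione and the NRF2 response, whose median was 0.071. Ces1e, a carboxylesterase of a family with similar copies, was at 46.8 to 64.2 CPM against 96.9 to 107 CPM (0.75 on the log2 scale, edgeR adjusted p = 0.0440). Scara5, a scavenger receptor that binds ferritin, was at 32.0 to 56.5 CPM against 13.5 to 26.7 CPM (log2 fold change -1.20, edgeR adjusted p = 0.0440). Sgk2, a kinase related to the glucocorticoid-regulated SGK1, was at 49.9 to 73.0 CPM against 93.4 to 108 CPM. Hyi, named for hydroxypyruvate isomerase and held as a polymorphic pseudogene in GENCODE vM21, was at 34.4 to 47.6 CPM against 61.7 to 76.0 CPM, and lost its call in all 9 fits that left out a library. Fam210a, a mitochondrial protein, was at 45.7 to 50.3 CPM against 57.9 to 79.1 CPM, with liver 18 lowest of the labelled knockout livers. Of the 9 fits that left out a library, Fam210a was called in 4, Scara5 in 3, and Gclc, Ces1e and Sgk2 in 2 each.

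Tuba4a and Gldn, among the genes next in order of p, were not called. Tuba4a, an alpha-tubulin, was at 94.0 to 134 CPM in the wild-type livers and 159 to 197 CPM in the livers labelled knockout, and Gldn, gliomedin, at 3.58 to 8.60 CPM and 0.791 to 1.60 CPM, both with an edgeR adjusted p of 0.0643.

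Lipid synthesis lists had no call. Of 23 tested sterol synthesis genes, 0 were higher and 8 lower at an unadjusted p under 0.05, beside 4.70% and 4.38% of all genes, and 1 of 23 log2 fold changes was above 0, with a median of -0.26. The list's mean log2 deviation was 0.15, -0.15, -0.48 and -0.83 in labelled knockout livers 17 to 20 and -0.11 to 0.21 in the wild-type livers, so liver 17 lay within the wild-type range and livers 18 to 20 below it. Of 23 fatty acid synthesis genes 1 was higher and 6 were lower at that unadjusted level, with a median of -0.32. Their mean log2 deviation was -0.10, -0.11, -0.55 and -0.55 in labelled knockout livers 17 to 20 and -0.43 to 0.43 in the wild-type livers. Livers 17 and 18 thus lay within the wild-type range. Scd2, a stearoyl-CoA desaturase, had the smallest p of these genes, at 36.6 CPM on average in the wild-type livers and 9.79 CPM in the livers labelled knockout (edgeR adjusted p = 0.0819). Its ranges overlapped, at 16.4 to 64.2 CPM and 3.16 to 16.9 CPM. Amino acid catabolism and the urea cycle had 0 calls among 30 genes, with 1 higher and 11 lower at an unadjusted p under 0.05. Ass1, an enzyme of the urea cycle, was at 1139 to 1416 CPM in the wild-type livers and 914 to 1045 CPM in the livers labelled knockout (edgeR adjusted p = 0.322).

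The BMP pathway showed no call. Of the 12 tested BMP and activin ligands, 19 receptors and SMADs, 8 antagonists and 8 SMAD targets, edgeR called 0, and 1, 0, 0 and 2 were higher and 0, 1, 0 and 0 lower at an unadjusted p under 0.05, beside 4.70% and 4.38% of all genes. Among the targets, Id1 was at 2.86, 2.67, 1.07, 2.63 and 3.09 CPM in wild-type livers 12 to 16 and at 0.812, 4.51, 9.49 and 8.27 CPM in labelled knockout livers 17 to 20 (edgeR adjusted p = 0.514). Liver 17 was the lowest of the 9 and the other 3 were the highest. Hamp, which encodes hepcidin, was at 16.0 CPM in liver 17, the lowest of the 9, and at 114, 275 and 129 CPM in livers 18 to 20, of which liver 18 lay within the wild-type range of 27.3 to 123 CPM (edgeR adjusted p = 0.744). Id2 was at 61.9 to 124 CPM in the wild-type livers and 82.6 to 143 CPM in the livers labelled knockout (edgeR adjusted p = 0.281). Inhbe, an activin subunit, had the smallest p among the ligands, with means of 34.9 and 58.4 CPM (edgeR adjusted p = 0.401).

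No proliferation gene was called, and the livers labelled knockout were spread. Of 25 mitosis genes and 24 DNA replication genes, edgeR called 0 of each. At an unadjusted p under 0.05, 1 of each was higher and 0 lower, beside 4.70% and 4.38% of all genes. Log2 fold changes were above 0 for 22 of the 25 mitosis genes (median 0.21) and 22 of the 24 DNA replication genes (median 0.27). The median of all tested genes was 0.0027. The mean log2 deviation over the mitosis genes was -0.82, 0.25, 0.99 and 0.47 in labelled knockout livers 17 to 20 and -0.63 to 0.56 in the wild-type livers, while the 5 day 0 livers lay between -4.75 and -3.48. Liver 17 had the lowest and liver 19 the highest level of the 9 day 3 livers. Cdc20, an activator of mitotic exit, was at 22.3, 39.8, 55.1, 48.1 and 42.9 CPM in wild-type livers 12 to 16 and at 19.8, 75.6, 128 and 88.0 CPM in labelled knockout livers 17 to 20 (edgeR adjusted p = 0.412). Liver 17, the lowest for mitosis genes, was also closest to the wild-type range for Cyp7a1, and its part in these results is given by the fits without it.

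Markers of other cell types held no call in any list. In whole liver, fewer cells of a type and less RNA per cell cannot be told apart. Of 8 tested markers of monocyte-derived macrophages (18 listed), all 8 log2 fold changes were below 0, 3 at an unadjusted p under 0.05 (4.38% of all genes were lower at that level), with a median of -0.67. The summed level of all 18 listed markers, tested or not, was 384 to 532 CPM in the wild-type livers and 233 to 341 CPM in the livers labelled knockout, without overlap. Of the 8 tested, 2 had all 4 labelled knockout livers below all 5 wild-type livers, beside 1.16% of all genes. Spp1, osteopontin, led them at 143 to 267 CPM against 96.1 to 137 CPM (edgeR adjusted p = 0.298). Lpl, lipoprotein lipase, overlapped, at 76.5 to 193 CPM against 32.4 to 89.4 CPM. In wild-type liver 12 Spp1 and Lpl were at 165 and 193 CPM, so the summed level rests largely on these genes. Resident Kupffer cell markers (19 tested) had a median of 0.048 and, over the 20 listed, summed levels of 877 to 1137 and 662 to 1341 CPM. Stellate cell and myofibroblast markers (21 tested) had 5 lower at an unadjusted p under 0.05, beside the same 4.38%, and a median of -0.30, with overlapping sums of 513 to 1231 and 444 to 984 CPM. Among them Des, desmin, was at 215 CPM in wild-type liver 12, 34.7 CPM in liver 14 and 4.64 to 7.62 in the other 3. The livers labelled knockout were at 2.67 to 8.28 CPM. Liver 12 was also highest for the glycolysis gene Aldoa, at 288 CPM against 77.1 to 98.3 CPM in the other wild-type livers. Aldoa was at 71.5 to 84.6 CPM in the livers labelled knockout. Pkm, also of glycolysis, was likewise highest in liver 12, at 49.6 CPM. Adipose and muscle markers (3 tested) had summed levels of 1108 to 3884 and 785 to 1910 CPM over the 16 listed. The part of muscle tissue in the Des difference was not tested. Neutrophil and lymphocyte markers had 2 and 3 tested members, with overlapping sums over the 16 and 24 listed. The part of other cell types in the called genes was not tested.

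Of the 17 called genes, 5 lay on chromosome 4 within 10 Mb of Bmp8b. Within 10 Mb of its start 187 genes were tested and 5 were called (2.67%), Ndufs5, C77080, Cyp4a14, Cyp4a10 and Hyi, against 12 of the 10839 other genes (0.111%). On chromosome 4 beyond 10 Mb 533 genes were tested and 2 were called (0.375%), Nr0b2 and Cyp7a1. Within 2 Mb 25 genes were tested and Ndufs5 was the single call. The calls lay at -7.62 Mb (Cyp4a14), -7.59 Mb (Cyp4a10), -4.75 Mb (Hyi), 0.61 Mb (Ndufs5) and 6.11 Mb (C77080) from Bmp8b. Cyp4a14 and Cyp4a10 lie side by side in 1 gene cluster, so their calls do not come from separate places. The median log2 fold change of the 187 genes was 0.068, and 14 were higher and 5 lower at an unadjusted p under 0.05, beside 4.70% and 4.38% of all genes. Cyp4a12a, Cyp4a12b and Cyp4a31 of the same cluster were also among the 14 higher genes.

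**Figure D4:**
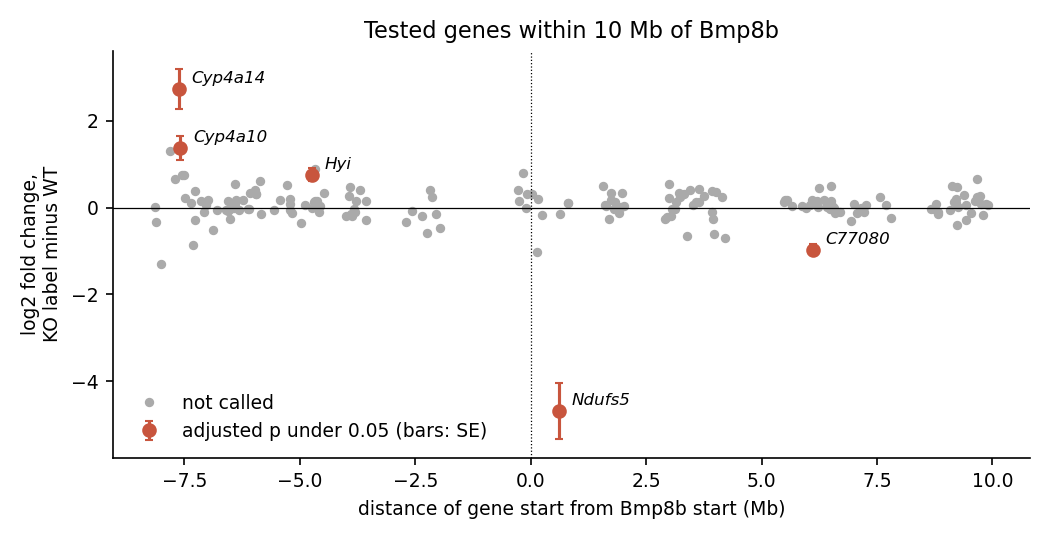
Log2 fold change of labelled knockout minus wild type at day 3 (y axis) for the 187 tested genes within 10 Mb of Bmp8b against the distance of their start from that of Bmp8b in Mb (x axis), red with SE bars where called. Of the 5 red points, 3 lie above 0 and 2 below, and those of Cyp4a14 and Cyp4a10 lie at nearly the same distance.

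The same label comparison was made in 2 other experiments of the series, with no library shared. On Western diet for 32 weeks (7 labelled knockout and 7 wild-type livers) edgeR called 2 of 13005 genes (0.0154%), BC002163 and Utp11. At 3 days after CCl4, a liver toxin (6 and 4 livers), it called 1 of 11663 (0.00857%), BC002163. The log2 fold change of BC002163 was 4.29 (SE 0.58) after hepatectomy, 4.45 (SE 0.32) on Western diet and 5.21 (SE 0.65) after CCl4, and neither difference between experiments was called (edgeR adjusted p = 1.00 and 0.782). Utp11, a ribosome assembly gene, was 0.50 higher on the log2 scale after hepatectomy, with overlapping groups (edgeR adjusted p = 0.377).

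The log2 label effect of Ndufs5 differed between the experiments. On Western diet it was at 15.7 ± 2.95 CPM (SD, n = 7) in wild-type and 9.08 ± 2.98 CPM (n = 7) in labelled knockout livers, -0.78 on the log2 scale (edgeR adjusted p = 0.261). After CCl4 it was at 10.9 ± 5.43 CPM (n = 4) and 7.78 ± 1.46 CPM (n = 6), -0.50 on the log2 scale (edgeR adjusted p = 0.814). After hepatectomy its means were 5.02 and 0.167 CPM, so the wild-type level was lowest there. BC002163 was at 0.386 and 8.36 CPM on Western diet, 0.205 and 8.06 CPM after CCl4, and 0.468 and 9.06 CPM after hepatectomy. The counts of these 2 genes were not summed in the other experiments. The test of the difference between experiments, in a joint fit of all 53 libraries and 12646 genes, called 2 genes against Western diet (0.0158%) and 5 against CCl4 (0.0395%). Ndufs5 was among both, with log2 differences of -4.05 and -4.34 (edgeR adjusted p = 0.00209 and 0.000922). The hepatectomy table lists 53379 genes, of which 36410 are in all 3 tables, so the tables were not counted on the same gene set, and the part of this in the Ndufs5 difference was not tested.

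For the fatty acid and bile acid genes the label effects in the other experiments were not called, and neither were the differences from hepatectomy. Cyp4a14 had log2 fold changes of 0.34 (SE 0.33) on Western diet and 0.52 (SE 1.10) after CCl4. Cyp7a1 had 0.043 (SE 0.39) and 0.54 (SE 0.88), and Nr0b2 had -0.20 (SE 0.19) and 0.47 (SE 0.60). For these 3 genes the edgeR adjusted p of the difference was 0.532 to 1.00 against Western diet and 0.363 to 0.562 against CCl4. The intervals after CCl4 are wide, as the SE show. The median log2 fold change of the fatty acid oxidation list was 0.041 on Western diet (27 tested) and 0.39 after CCl4 (26 tested), with 0 calls in each. The medians of all tested genes were -0.0015 and -0.0070. After CCl4 the value was not particular to this list, as fatty acid synthesis was at 0.43 and sterol synthesis at 0.38. Gluconeogenesis and glycolysis was at -0.0027 there.

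**Figure D5:**
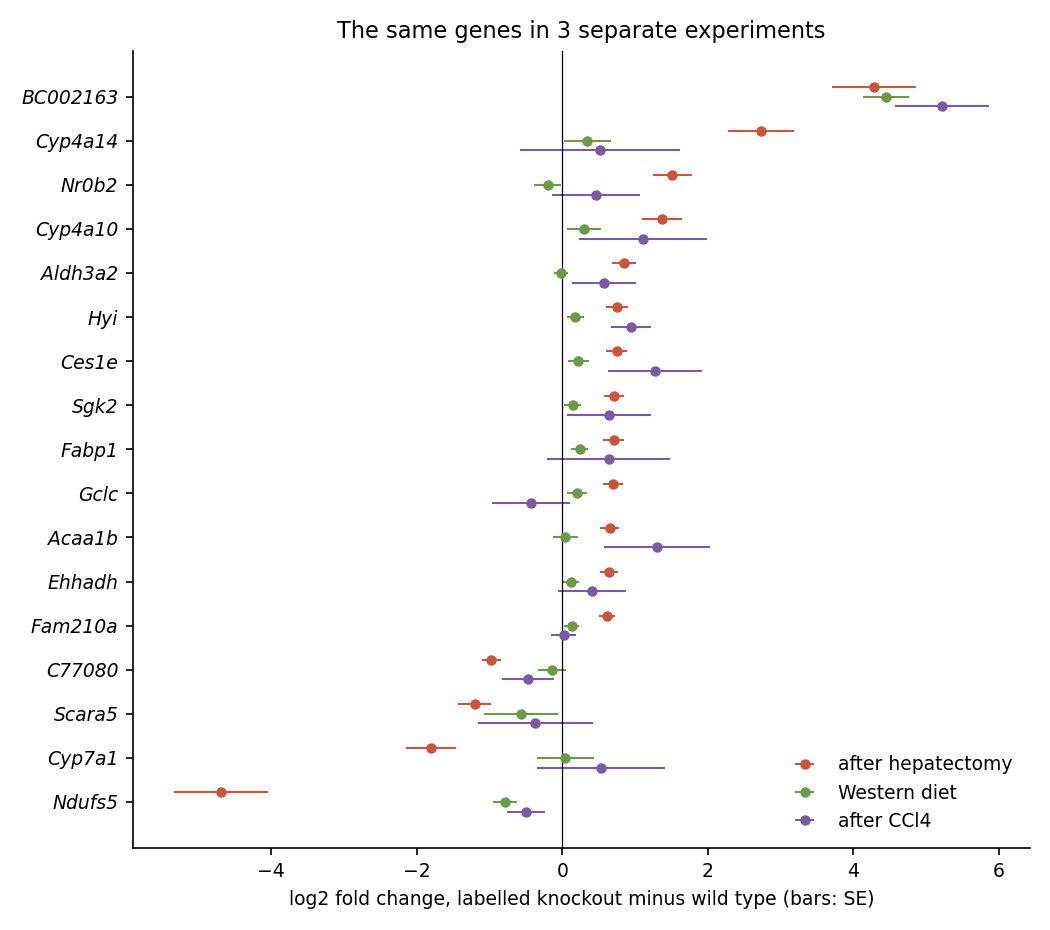
Log2 fold change of labelled knockout minus wild type (x axis, bars SE) for the 17 genes called after hepatectomy (red), on Western diet (green) and after CCl4 (purple), each from its own fit. BC002163 is high in all 3 experiments, and Ndufs5 is at -4.69, -0.78 and -0.50.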

How the data were processed

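The deposited values are unnormalized counts of reads for each Ensembl gene. TopHat2 2.0.11, HTSeq and the GRCm38 build are named in the submitters' processing notes. The HTSeq version, the annotation release, the strand setting and the treatment of multiply mapped reads are not given in the sources used here. GENCODE vM21 gave symbols and positions for 53274 of 53379 identifiers. The 14 hepatectomy libraries were fitted in edgeR 4.0.16 (R 4.3.3) with a mean per group, TMM, filterByExpr and the two-sided quasi-likelihood F-test, with Benjamini-Hochberg adjustment over all tested genes and a call at 0.05. SE are the log2 fold change divided by the root of F. Alternatives used limma 3.58.1 and DESeq2 1.42.0. Titles number the mice, and p-values measure the spread between these livers. Named genes were Bmp8b and Bmp8a, every called gene, the next genes by p up to 20, up to 4 members per list and up to 5 neighbours by smallest p, and genes called in the other experiments; Spred1, Odc1, Ppp4c and Polr1c were added after their values were seen, as was Ppargc1a. A gene that this rule names is not reported here. The genes and lists were chosen with earlier results of these data known. Day 0 and day 3 wild-type livers share mouse numbers, with a consensus correlation of 0.0186.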

Additional observations from a re-analysis of the deposited data

Results flagged for a closer look

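In 4 cases a library lay far from the others of its group, among 44 groups checked over 22 genes by Dixon's test, where chance alone marks about 1 group in 20. Bmp8b was at 1.08 CPM in labelled knockout liver 17, with the other 3 at 2.37 to 2.63 CPM. BC002163 was at 1.43 CPM in wild-type liver 14, with the other 4 at 0 to 0.387 CPM. Fam210a was at 57.9 CPM in labelled knockout liver 18, with the other 3 at 76.0 to 79.1 CPM. Ces1e was at 46.8 CPM in wild-type liver 14, with the other 4 at 61.5 to 64.2 CPM.

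The label effect differed between experiments, by the test of the difference in edgeR, for 5 genes. For Ndufs5 the effect after hepatectomy minus that on Western diet was -4.05, and minus that after CCl4 -4.34, on the log2 scale. Spred1, an inhibitor of RAS-MAPK signalling, had differences of 1.20 (edgeR adjusted p = 0.0252) and 1.43 (edgeR adjusted p = 0.00310). It was at 7.79, 11.3, 10.7, 11.8 and 8.12 CPM in wild-type livers 12 to 16 and at 21.1, 21.1, 26.5 and 18.1 CPM in labelled knockout livers 17 to 20, though the hepatectomy comparison alone did not call it (edgeR adjusted p = 0.0689). Against CCl4, Odc1, the first enzyme of polyamine synthesis, differed by 1.16, Ppp4c, a phosphatase catalytic subunit, by 0.89 and Polr1c, a subunit of RNA polymerases I and III, by 1.23. For these 3 genes the label effect was 0.34, 0.38 and 0.75 after hepatectomy and -0.84, -0.53 and -0.51 after CCl4, none called within its own experiment.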

How the results depend on the processing

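Against 17 calls, DESeq2 made 63 (41 higher, 22 lower), no filter on low counts 182 (66 higher, 116 lower), a fold threshold of 1.5 made 2, the title suffix N as a covariate 29 (12 of the 17 among them), and upper quartile scaling 9. Robust dispersion made 18, also with 12 of the 17. DESeq2 made 21 calls after CCl4 and 24 for the difference between hepatectomy and CCl4. Leaving out 1 library gave 3 to 40 calls for the comparison, 1 to 3 and 4 to 9 for the differences from Western diet and CCl4, and a Bmp8b difference of 0.82 to 1.20. The replicate block, mouse number as a random effect in limma voom, gave 21 calls (16 higher, 5 lower), 16 of them shared. Signs turned for Ndufs5 summed with BC002163 (0.77, an alternative chosen after seeing the data), for the BC002163 difference from Western diet (-0.39 to 0.85 over the libraries left out, with 0.13 without labelled knockout liver 19) and for the Fabp1 difference from CCl4 (-0.025 to 0.14, with -0.017 without wild-type liver 14). The causes were not tested. Low depth limits Bmp8b, and 9 livers limit small effects.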

Other observations

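Genes of zinc and metallothionein handling had no call among 7 tested, with 1 higher and 4 lower at an unadjusted p under 0.05, beside 4.70% and 4.38% of all genes. Mt1, which encodes a metal-binding metallothionein, was at 164, 26.1, 521, 465 and 30.5 CPM in wild-type livers 12 to 16 and at 52.8, 20.3, 51.0 and 31.2 CPM in labelled knockout livers 17 to 20. Mt2 followed it, at 69.8, 18.7, 309, 299.95 and 17.4 CPM against 29.2, 15.8, 35.97 and 13.6 CPM. The wild-type livers were thus split, with 12, 14 and 15 high and 13 and 16 in the range of the livers labelled knockout (edgeR adjusted p = 0.298 and 0.165). Slc39a14, a zinc and iron importer, did not overlap, at 292 to 424 CPM against 193 to 236 CPM (edgeR adjusted p = 0.0643).

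Acute phase genes showed the same 2 sets of wild-type livers. Their mean log2 deviation over 24 genes was 0.19, 0.72 and 0.50 in wild-type livers 12, 14 and 15 and -0.73 and -0.69 in 13 and 16, while labelled knockout livers 17 to 20 were at -0.21, -0.65, -0.70 and -0.34. Saa2, a serum amyloid, was at 5427, 187, 7423, 4889.9 and 1226 CPM in wild-type livers 12 to 16 and at 582 to 1811 CPM in the livers labelled knockout (edgeR adjusted p = 0.538). None of the 24 genes was called by edgeR, and 3 were lower at an unadjusted p under 0.05, beside 4.38% of all genes.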
